A study of Arabidopsis thaliana with 14 samples.

Results

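The comparison described here sets bzr1-1D seedlings grown with DPI plus H2O2 against Col-0 mock seedlings across all genes. It was made by joining, gene by gene, the authors' mean of each of both groups and taking the log2 of their ratio, so that a positive value means a higher mean in the treated mutant. The join held 22918 of the 24350 genes in the tables. Of the 14 samples of the series, 5 belong to these groups, 2 of bzr1-1D with DPI plus H2O2 and 3 of Col-0 mock. All groups were Columbia seedlings kept for 6 days in darkness on medium with 2 µM PPZ. The bzr1-1D DPI plus H2O2 group also received 1 µM DPI and 0.3 mM H2O2, the bzr1-1D DPI and Col-0 DPI groups 1 µM DPI, and the bzr1-1D mock and Col-0 mock groups neither. bzr1-1D is a dominant gain-of-function allele of BZR1, and Col-0 is the wild type. The groups compared differ in genotype, in DPI and in H2O2 at once, and no Col-0 group with DPI plus H2O2 is among the samples, so the shares of the allele, the inhibitor and the peroxide in a difference cannot be told apart. The means of the other 3 groups are given beside the main values for that reason, as description only.

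Brassinosteroids are growth-promoting steroid hormones perceived at the cell surface by the receptor kinase BRI1. Signalling inactivates the kinase BIN2, which lets the transcription factors BZR1 and BES1 accumulate in the nucleus, where they promote cell elongation genes and repress the genes of brassinosteroid synthesis and of chloroplast development. PPZ (propiconazole) blocks brassinosteroid synthesis, and the bzr1-1D protein stays active in its presence. DPI (diphenylene iodonium) inhibits flavoenzymes, among them the NADPH oxidases that start the production of H2O2 at the plasma membrane.

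The files gave 1 mean per group, in a unit taken as FPKM, and no value per sample. No SD, p-value or interval could therefore be given, the depth of the libraries is unknown, and whether a difference exceeds the spread between replicates could not be tested. Judged by their decimals, the means of bzr1-1D with DPI plus H2O2 and of bzr1-1D mock each pooled 2 libraries and the other means 3, although the labels list 3 bzr1-1D mock samples. A gene counted as higher or lower here had means at least 1.5-fold apart, the fold used in the study, and averaged at least 1 FPKM over both groups. The lowest value in the tables, 0.01 FPKM, stands for no detected expression, and no fold is given against it. The labels call the tissue hypocotyl, while some root markers were present in every group. PYK10, a beta-glucosidase of root endoplasmic reticulum bodies, had 900.7 FPKM in bzr1-1D with DPI plus H2O2 and 2359 FPKM in Col-0 mock. CASP1, a scaffold of the root Casparian strip, had 126 and 50.9 FPKM. These are abundant members of the list, and 6 of the 13 root markers averaged under 1 FPKM over both groups. Summed over the 13 root markers listed, the means were 1091 FPKM in bzr1-1D with DPI plus H2O2 and 2606 FPKM in Col-0 mock. The other groups had 839 to 1975 FPKM. PYK10 made up most of this sum in every group, so the sum does not describe the markers as a set. CASP1 went the other way. The part of root tissue in the results below was not tested, and in such bulk RNA fewer cells of a type and less RNA per cell cannot be told apart.

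Of 18447 genes tested, 5586 (30.3%) were at least 1.5-fold higher in bzr1-1D with DPI plus H2O2 and 2653 (14.4%) were lower, so 44.7% were past the threshold. The median gene itself had a log2 ratio of 0.19, and the quartiles were -0.29 and 0.73. With this shift removed by centring on the median gene, 4294 genes were higher and 3813 lower, which brings the share of higher genes among those past the threshold to 53.0%, against 67.8% as deposited. Gene lists below are therefore read against a median of 0.19, and their counts against the 30.3% higher and 14.4% lower of all genes. The excess of higher genes was largest in the lowest of 3 level classes, with 35.2% higher and 13.8% lower between 1 and 10 FPKM. Among the 1176 genes at 100 FPKM or more the order was the other way, with 231 higher (19.6%) and 276 lower. At least 4-fold differences were found for 771 higher and 286 lower genes, and at least 16-fold differences for 141 and 82.

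**Figure D1:**
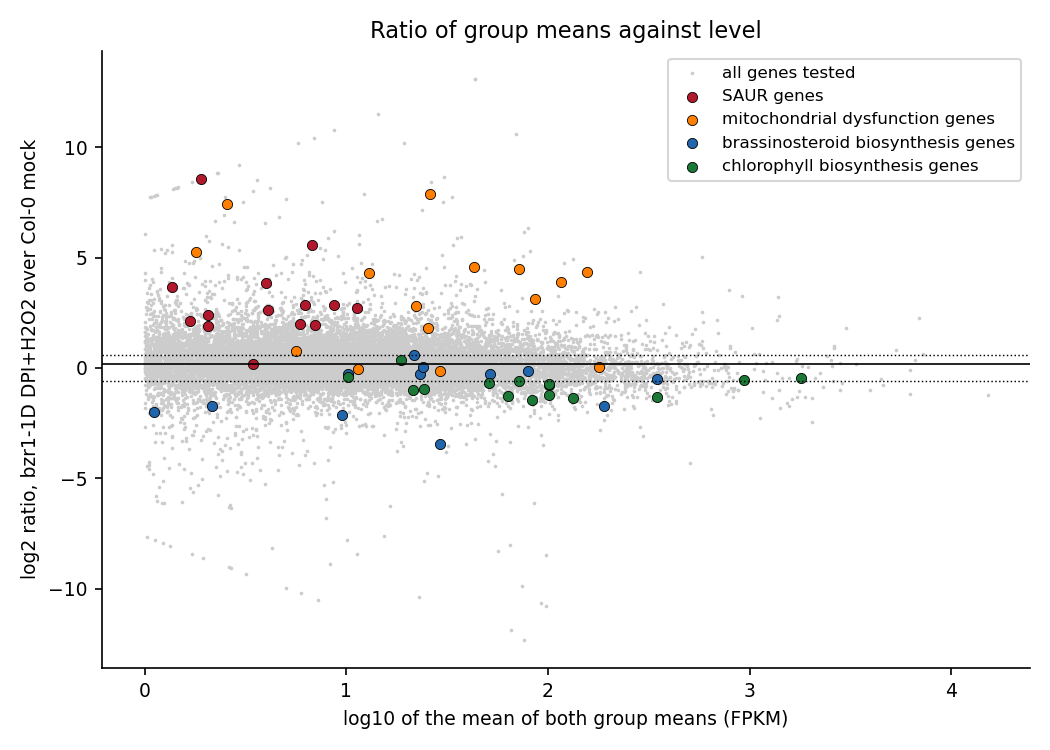
Log2 ratio of the authors' means, bzr1-1D DPI plus H2O2 over Col-0 mock (vertical axis), against the log10 of the mean of both groups in FPKM (horizontal axis) for the 18447 genes tested (grey). The solid line is the median of 0.19 and the dotted lines mark 1.5-fold, with most SAUR (red) and mitochondrial dysfunction genes (orange) above them and most chlorophyll biosynthesis genes (green) below.

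BZR1 itself was not past the threshold. Its authors' mean was 40.8 FPKM in bzr1-1D with DPI plus H2O2, against 35.9 FPKM in Col-0 mock, and the log2 ratio of 0.18 was close to that of the median gene. bzr1-1D is not a loss of the transcript, so this value does not check the genotype. Its closest relative BES1 was lower, at 35.6 FPKM in bzr1-1D with DPI plus H2O2 and 63.0 FPKM in Col-0 mock, and BEH2 was lower too, at 37.4 and 60.1 FPKM. BEH3 was the only higher member of the 6 in the family, with 5.88 FPKM in bzr1-1D with DPI plus H2O2 and 2.29 FPKM in Col-0 mock. The family median of 0.04 lay under the all-gene median and its sign changed on centring, to -0.14. BZR1 and BES1 overlap neighbouring genes on the opposite strand, and whether counting used strand is not stated in the sources, so their reads may include those of the neighbours.

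Several late genes of brassinosteroid synthesis were lower, and most of the few listed genes that inactivate brassinosteroids were higher. Of 12 biosynthesis genes, 5 were lower and 1 higher, with a median log2 ratio of -0.41. BR6OX2, the cytochrome P450 that makes the most active brassinosteroid, brassinolide, had 4.85 FPKM in bzr1-1D with DPI plus H2O2, against 53.5 FPKM in Col-0 mock (log2 ratio -3.46). DWF4, the rate-limiting hydroxylase, had 3.55 and 15.5 FPKM (log2 ratio -2.13). CPD, another cytochrome P450 of the pathway, had 87.7 and 290.3 FPKM (log2 ratio -1.73). BR6OX1 and CYP90D1 were lower as well, and the early sterol genes SMT2, FK, DWF5 and STE1 stayed within 1.5-fold. For BR6OX2 all 3 bzr1-1D groups were low, at 2.88 FPKM under DPI and 4.34 FPKM without it, and Col-0 with DPI had 27.6 FPKM. The 1 higher gene was ROT3, a cytochrome P450, at 26.1 FPKM in bzr1-1D with DPI plus H2O2 and 17.42 FPKM in Col-0 mock. Its log2 ratio of 0.59 fell inside the threshold on centring, and it overlaps a neighbouring gene, as do SOB7, RBOHE, CASP1, CRD1, XTH15, TRXH2 and LHCB1.3.

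Of 5 inactivation genes 4 were higher and none lower, with a median of 2.07. SOB7, a cytochrome P450 that inactivates brassinosteroids, had 24.7 FPKM in bzr1-1D with DPI plus H2O2 and 5.60 FPKM in Col-0 mock, and it was as high in bzr1-1D mock at 21.8 FPKM. UGT73C5, a glucosyltransferase for brassinosteroids and for toxins, differed from it. It had 67.1 FPKM in bzr1-1D with DPI plus H2O2, 50.7 FPKM in bzr1-1D with DPI, 3.28 FPKM in bzr1-1D mock, 16.9 FPKM in Col-0 with DPI and 5.81 FPKM in Col-0 mock, and so was higher in each DPI group. A neighbouring gene of its family is also among the 4 higher and may share reads with it. The 4 may therefore not be separate observations. Of 9 receptor and kinase genes tested, 8 stayed within 1.5-fold, with a median of 0.08 that became -0.11 on centring. BRI1 had 72.2 FPKM in bzr1-1D with DPI plus H2O2 and 68.4 FPKM in Col-0 mock, and BIN2 had 231 and 234 FPKM. The exception was the receptor gene BRL1, lower at 1.02 and 3.52 FPKM.

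**Figure D2:**
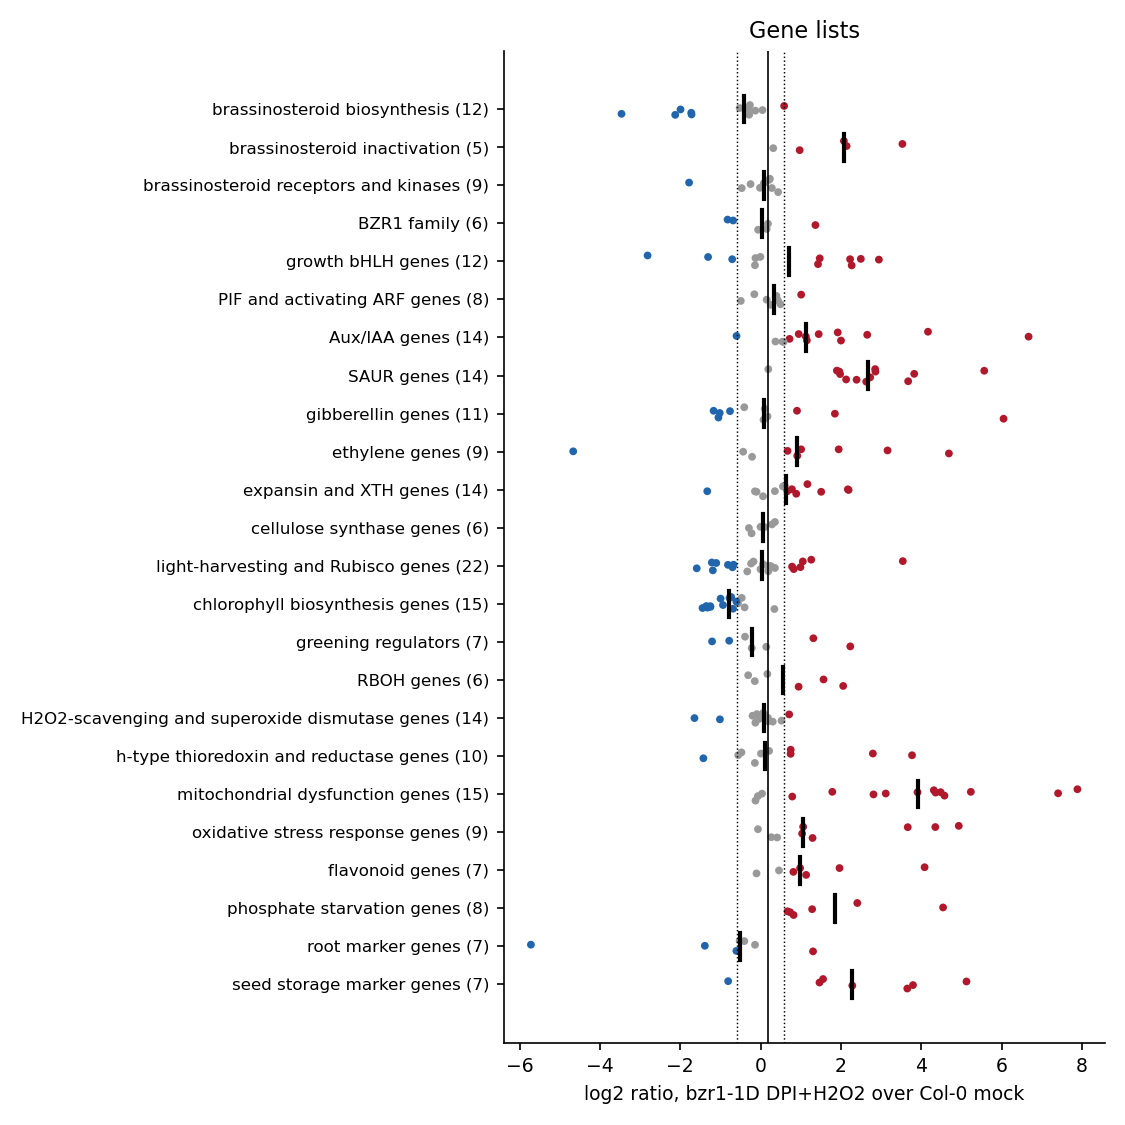
Log2 ratio of each tested member of 24 gene lists (points, with the number tested in brackets), red for at least 1.5-fold higher, blue for lower and grey for within 1.5-fold, with each list's median as a black bar. The solid line is the all-gene median of 0.19, the dotted lines mark 1.5-fold, and genes at the lowest table value are not drawn but count in the medians.

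Auxin-responsive genes made up the growth lists with the largest medians. Of 14 SAUR genes, short-lived proteins that promote cell expansion, 13 were higher and none lower, with a median log2 ratio of 2.68 that was 1.78 with 1 FPKM added. Of 14 Aux/IAA genes, the auxin-induced repressors of auxin response, 10 were higher and 1, IAA8, was lower, with a median of 1.14. IAA19 had 66.6 FPKM in bzr1-1D with DPI plus H2O2, 21.3 FPKM in bzr1-1D with DPI, 86.4 FPKM in bzr1-1D mock, 2.73 FPKM in Col-0 with DPI and 3.71 FPKM in Col-0 mock. SAUR9 had 13.3, 6.94, 11.9, 0.46 and 0.28 FPKM in the same groups. SAUR16 had 7.46, 2.59, 13.0, 0.22 and 0.53 FPKM. In each of these genes the bzr1-1D DPI mean was the lowest of the bzr1-1D means and still above both Col-0 means. IAA6 averaged 4.42 FPKM in bzr1-1D with DPI plus H2O2 and 0.04 FPKM in Col-0 mock. SAUR10 had 3.82 FPKM in bzr1-1D with DPI plus H2O2 and was listed at the lowest value in both Col-0 groups. SAUR15 was under the minimum, with 1.64 FPKM in bzr1-1D with DPI plus H2O2 and the lowest value in Col-0 mock. SAUR19 to SAUR24 are near-identical neighbours that may share reads, so their 6 values, all higher, are not separate observations.

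Side by side, the median log2 ratio of the SAUR list was 2.89 for bzr1-1D mock over Col-0 mock, -2.18 for bzr1-1D DPI over bzr1-1D mock and 1.61 for bzr1-1D DPI plus H2O2 over bzr1-1D DPI. For Aux/IAA genes these medians were 1.33, -1.25 and 1.25, and over all genes tested 0.14, -0.23 and 0.29. These comparisons share groups, so the medians are not independent of each other. For DPI in Col-0 the medians were -0.47 for SAUR genes, -0.64 for Aux/IAA genes and -0.29 over all genes.

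Growth-related helix-loop-helix genes were mixed. Of 12 tested, 6 were higher and 3 lower, with a median of 0.71 that was near 0 (-0.01) without a minimum level. The atypical factor PRE6, which frees growth factors from inhibition, had 106.7 FPKM in bzr1-1D with DPI plus H2O2 and 13.9 FPKM in Col-0 mock, and was high in bzr1-1D with DPI (84.3 FPKM) and in bzr1-1D mock (92.6 FPKM). PRE1 had 2.84 FPKM against 0.61 FPKM in Col-0 mock, PRE5 5.16 against 1.07 FPKM and PAR2 42.3 against 7.51 FPKM. PRE3 went the other way, with 0.89 FPKM in bzr1-1D with DPI plus H2O2 and 6.26 FPKM in Col-0 mock. HFR1, an inhibitor of PIF factors, was lower at 21.8 and 53.9 FPKM, and PAR1 at 24.1 and 39.3 FPKM. IBH1, an inhibitor of PRE partners, was higher at 86.0 and 32.0 FPKM. Because inhibitors share the list with PRE genes, its counts and median have no single growth direction. Among PIF and ARF genes, whose proteins act with BZR1 on growth genes, 7 of 8 stayed within 1.5-fold, with a median of 0.32. PIF4 had 9.23 FPKM in bzr1-1D with DPI plus H2O2 and 10.3 FPKM in Col-0 mock, and ARF6 30.1 and 42.4 FPKM. ARF6, at a log2 ratio of -0.49, passed the threshold for lower on centring. PIL1 was the 1 higher gene, at 39.4 and 19.6 FPKM.

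Of the gibberellin synthesis genes, GA20ox1 and GA3ox1 were higher and GA20ox2 stayed within 1.5-fold. GA20ox1 had 1.98 FPKM in bzr1-1D with DPI plus H2O2 against 0.03 FPKM in Col-0 mock, and GA3ox1 had 22.8 against 6.32 FPKM. The receptor genes GID1A (15.6 against 35.1 FPKM) and GID1C (15.8 against 26.7 FPKM) were lower, and so were the DELLA repressor genes RGL2 and RGL3, while the DELLA gene RGL1 was higher at 18.8 against 10.05 FPKM. In all, 3 of 11 gibberellin genes were higher and 4 lower, against 30.3% and 14.4% of all genes tested. Their median of 0.07 became -0.12 on centring. Of 9 ethylene genes 6 were higher and 1 lower. The ethylene precursor synthase genes split, with ACS2 at 10.5 FPKM in bzr1-1D with DPI plus H2O2 and 0.41 FPKM in Col-0 mock, ACS5 at 2.12 and 0.24 FPKM, ACS8 at 3.84 and 1.00 FPKM, and ACS11 at 0.20 and 4.95 FPKM. The median of 0.91 turned to -0.21 among members at 10 FPKM or more.

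Cell wall loosening genes were higher in 8 of 14 cases and lower in 1, with a median of 0.63. EXPA8, an expansin, had 34.2 FPKM in bzr1-1D with DPI plus H2O2, 16.0 FPKM in bzr1-1D with DPI, 65.6 FPKM in bzr1-1D mock, 4.36 FPKM in Col-0 with DPI and 7.60 FPKM in Col-0 mock. EXPA1 had 61.8 FPKM in bzr1-1D with DPI plus H2O2 and 13.5 FPKM in Col-0 mock, while bzr1-1D with DPI had 57.9 and bzr1-1D mock 48.7 FPKM, so its DPI mean was not below that of the mock. XTH33, a xyloglucan-modifying enzyme, had 24.1 and 8.49 FPKM. XTH15 was lower, with 982 FPKM in bzr1-1D with DPI plus H2O2 and 2466 FPKM in Col-0 mock. All 6 of the cellulose synthase genes stayed within 1.5-fold, from -0.29 to 0.36, and their median of 0.05 became -0.14 on centring.

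**Figure D3:**
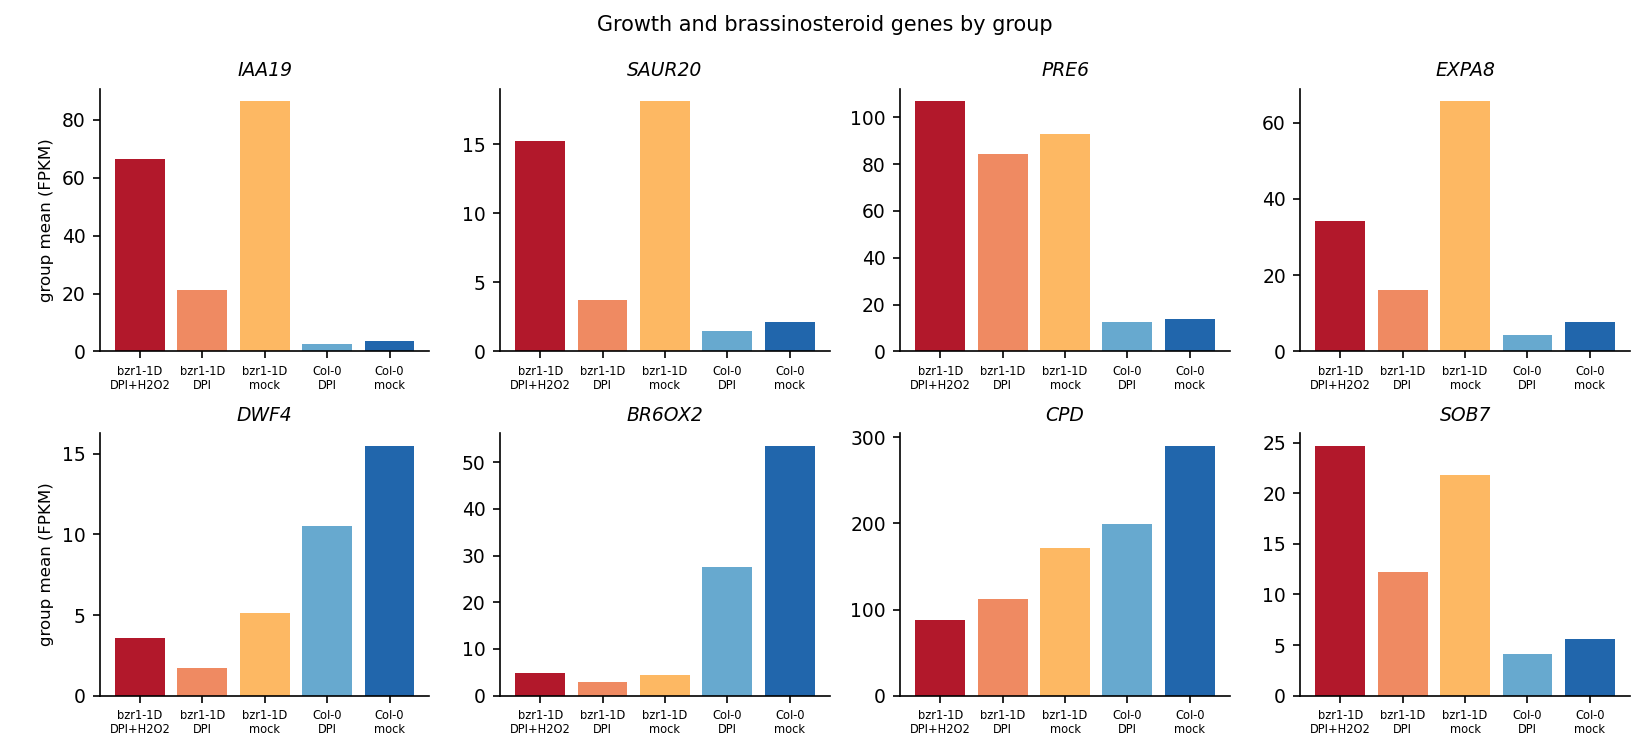
Authors' group means in FPKM (vertical axis, from 0) of 8 growth and brassinosteroid genes in the 5 groups (bars, no error available). IAA19, SAUR20, PRE6, EXPA8 and SOB7 are higher in the bzr1-1D groups, and DWF4, BR6OX2 and CPD are lower, with DWF4 at 3.55 FPKM in bzr1-1D with DPI plus H2O2 and 15.5 FPKM in Col-0 mock.

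BZR1 binds the G-box CACGTG and the brassinosteroid response element CGTGTG or CGTGCG. These words were searched on both strands in the 250 bases upstream of the gene start of 18308 tested genes. The G-box was in 6.86% of promoters of higher genes, 7.36% of lower genes and 7.29% of all genes tested. The response element was in 6.59% of higher, 8.36% of lower and 6.96% of all promoters. Among genes at least 4-fold apart it was in 8.58% of higher and 9.57% of lower promoters, and the G-box in 6.63% and 7.09%. In 1.29% of all promoters the G-box overlapped the response element. None of the 14 SAUR promoters and 1 of 12 biosynthesis promoters (a G-box in DWF5) held either word, and of the 14 Aux/IAA promoters 3 held the response element and 2 the G-box. IAA19 and EXPA1, which were higher, and ACS11, which was lower, are shown as examples that hold them, from RefSeq TAIR10.1 at chr3:5263751-5264000 (plus strand), chr1:26141476-26141725 (plus strand) and chr4:4886712-4886961 (plus strand). The 250 bases run 5′ to 3′ towards the gene start, and capitals mark the matches on either strand.
IAA19: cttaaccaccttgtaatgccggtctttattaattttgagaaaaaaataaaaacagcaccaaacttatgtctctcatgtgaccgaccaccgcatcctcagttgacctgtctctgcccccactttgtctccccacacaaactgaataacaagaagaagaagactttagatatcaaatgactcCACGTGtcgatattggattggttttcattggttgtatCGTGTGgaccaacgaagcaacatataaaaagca
EXPA1: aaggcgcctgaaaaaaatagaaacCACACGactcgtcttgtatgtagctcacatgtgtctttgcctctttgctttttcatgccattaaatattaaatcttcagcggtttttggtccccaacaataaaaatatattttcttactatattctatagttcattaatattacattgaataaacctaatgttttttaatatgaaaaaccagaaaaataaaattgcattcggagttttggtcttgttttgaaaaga
ACS11: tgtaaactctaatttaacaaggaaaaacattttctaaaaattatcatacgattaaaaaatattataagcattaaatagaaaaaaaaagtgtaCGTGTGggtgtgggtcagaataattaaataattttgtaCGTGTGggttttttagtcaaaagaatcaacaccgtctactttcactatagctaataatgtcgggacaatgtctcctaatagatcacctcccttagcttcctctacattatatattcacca

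IAA19 held 1 G-box and 1 response element, EXPA1 1 response element and ACS11 2 response elements. A match is a description of letters and not a binding site.

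Genes of H2O2 production and removal were examined next. Of 6 NADPH oxidase (RBOH) genes 3 were higher and none lower, with a median of 0.56. RBOHD, the main oxidase of stress signalling, had 9.60 FPKM in bzr1-1D with DPI plus H2O2 and 4.99 FPKM in Col-0 mock. RBOHC, an oxidase of root hairs, had 3.44 and 1.16 FPKM, and RBOHE had 4.22 and 1.02 FPKM. RBOHF stayed within 1.5-fold, at 3.25 and 3.59 FPKM. Among scavenging and superoxide dismutase genes 11 of 14 stayed within 1.5-fold, with a median of 0.08 (-0.11 after centring). CAT3, a catalase, was lower at 2612 FPKM in bzr1-1D with DPI plus H2O2 and 5272 FPKM in Col-0 mock, and CAT2 had 130 and 150 FPKM. The copper/zinc superoxide dismutase gene of the chloroplast, CSD2, had 84.6 FPKM in bzr1-1D with DPI plus H2O2, 68.4 FPKM in bzr1-1D with DPI, 86.7 FPKM in bzr1-1D mock, 69.9 FPKM in Col-0 with DPI and 265 FPKM in Col-0 mock. Col-0 mock thus stood alone for CSD2. The cytosolic CSD1 was higher, at 268 and 164 FPKM, a log2 ratio of 0.71 that fell inside the threshold on centring.

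Thioredoxins reduce oxidised proteins, and TRXh5 is the member that the study links to BZR1. From other experiments, the study also reports that brassinosteroid lowers TRXh5 expression and that BZR1 binds its promoter. Between the mock groups here, both on PPZ, bzr1-1D had the higher TRXH5 mean. TRXH5 had 18.6 FPKM in bzr1-1D with DPI plus H2O2, 14.3 FPKM in bzr1-1D with DPI, 38.2 FPKM in bzr1-1D mock, 16.1 FPKM in Col-0 with DPI and 25.9 FPKM in Col-0 mock. Its log2 ratio of -0.48 was within the threshold as deposited and passed it for lower on centring. Of the 10 h-type thioredoxin and reductase genes 4 were higher and 1 lower, against 30.3% and 14.4% of all genes tested. Their median of 0.11 became -0.08 on centring, when 2 were higher and 3 lower. TRXH8 had 7.82 FPKM in bzr1-1D with DPI plus H2O2 and 0.57 FPKM in Col-0 mock, TRXH7 had 2.15 and 0.31 FPKM, and TRXH4 was lower at 2.79 and 7.49 FPKM. TRXH8 was also high in bzr1-1D with DPI (10.8 FPKM) and in Col-0 with DPI (5.13 FPKM), and had 0.68 FPKM in bzr1-1D mock.

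Genes of the mitochondrial dysfunction response had a median of 3.91, the largest of the 24 lists as deposited. It was 2.61 with 1 FPKM added, and 3.51 at a minimum of 10 FPKM, where the oxidative stress list was above it at 4.01. They are nuclear genes that respond when mitochondrial electron transport is impaired, and 12 of 15 were higher and none lower. AT12CYS-2 had 52.1 FPKM in bzr1-1D with DPI plus H2O2, 58.2 FPKM in bzr1-1D with DPI, 0.38 FPKM in bzr1-1D mock, 17.6 FPKM in Col-0 with DPI and 0.22 FPKM in Col-0 mock. AOX1A, the main alternative oxidase, had 155, 153, 26.6, 48.5 and 17.9 FPKM in the same groups. UPOX, induced by oxidative stress, had 297, 188, 18.4, 37.2 and 14.5 FPKM. In these genes all DPI groups stood above both mock groups, and the bzr1-1D DPI groups above Col-0 with DPI. AOX1D and the alternative NADH dehydrogenase gene NDA1 followed at lower levels, with 5.08 and 3.51 FPKM in bzr1-1D with DPI plus H2O2 and 0.03 and 0.09 FPKM in Col-0 mock. The regulator gene NAC013 was higher, at 38.8 and 5.53 FPKM, and the regulator gene NAC017 was not past the threshold, at 28.0 and 30.6 FPKM. AT12CYS-1 and DIC2 also stayed within 1.5-fold. AT12CYS-1 and AT12CYS-2 are close copies that may share reads.

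The median of this list was 0.29 for bzr1-1D mock over Col-0 mock, 1.98 for bzr1-1D DPI over bzr1-1D mock, 0.05 for bzr1-1D DPI plus H2O2 over bzr1-1D DPI and 1.43 for Col-0 DPI over Col-0 mock. Over all genes, 244 (1.25%) of 19471 had all 3 DPI groups at least 1.5-fold above both mock groups, and 457 (2.35%) below. At 8-fold or more these were 17 (0.0873%) and 6 (0.0308%). Of the 15 mitochondrial dysfunction genes with a mean of 1 FPKM or more in some group, 9 were among the 244, a pattern chosen after the values were seen.

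The mitochondrial dysfunction motif, CTTG followed after any 5 bases by CACG or CAAG and searched on both strands, was added after the values were seen. It was in 1.51% of the upstream windows of higher genes, 6.11% of those at least 4-fold higher, 0.655% of lower genes and 0.950% of all genes tested, and in 5 of 15 windows of this list. NDA1 and UPOX, whose windows touch no other annotated gene, are shown because both genes were over 16-fold higher, from RefSeq TAIR10.1 at chr1:2203854-2204103 (plus strand) and chr2:9254128-9254377 (plus strand). Capitals mark this motif and, in UPOX, also a G-box that overlaps a response element, CGCACGTG.
NDA1: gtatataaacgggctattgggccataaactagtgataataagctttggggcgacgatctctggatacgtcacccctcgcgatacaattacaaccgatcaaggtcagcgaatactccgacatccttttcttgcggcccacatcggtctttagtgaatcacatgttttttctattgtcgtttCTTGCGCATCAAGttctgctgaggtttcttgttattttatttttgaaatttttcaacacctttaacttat
UPOX: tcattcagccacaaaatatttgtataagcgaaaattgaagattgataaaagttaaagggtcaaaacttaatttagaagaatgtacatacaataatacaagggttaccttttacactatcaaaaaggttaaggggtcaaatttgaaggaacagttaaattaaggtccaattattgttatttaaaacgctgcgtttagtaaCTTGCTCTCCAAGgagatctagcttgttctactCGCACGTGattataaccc

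The motif began 70 bases before the gene start in NDA1 and 51 bases before it in UPOX.

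Oxidative stress and flavonoid genes were higher too. Of 9 oxidative stress genes 6 were higher and none lower, with a median of 1.06 that was 0.85 with 1 FPKM added and 4.01 among members at 10 FPKM or more. The glutathione transferase gene GSTU25 had 257 FPKM in bzr1-1D with DPI plus H2O2, 149 FPKM in bzr1-1D with DPI, 10.4 FPKM in bzr1-1D mock, 35.4 FPKM in Col-0 with DPI and 8.41 FPKM in Col-0 mock. GSTU24 had 544 and 26.7 FPKM in bzr1-1D with DPI plus H2O2 and Col-0 mock, and OXI1, a kinase activated by H2O2, had 22.9 and 1.81 FPKM. The GSTU genes and OXI1 had their highest mean with DPI plus H2O2. Of 7 flavonoid genes 5 were higher and none lower, with a median of 0.98 that was 0.36 at a minimum of 10 FPKM. PAP1, a regulator of anthocyanin synthesis, had 4.91 FPKM in bzr1-1D with DPI plus H2O2 and 0.29 FPKM in Col-0 mock, FLS1 10.6 and 2.71 FPKM, and F3H 5.97 and 2.72 FPKM. Unlike GSTU25, PAP1 was highest in bzr1-1D with DPI alone, at 11.9 FPKM, and F3H likewise at 20.5 FPKM.

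**Figure D4:**
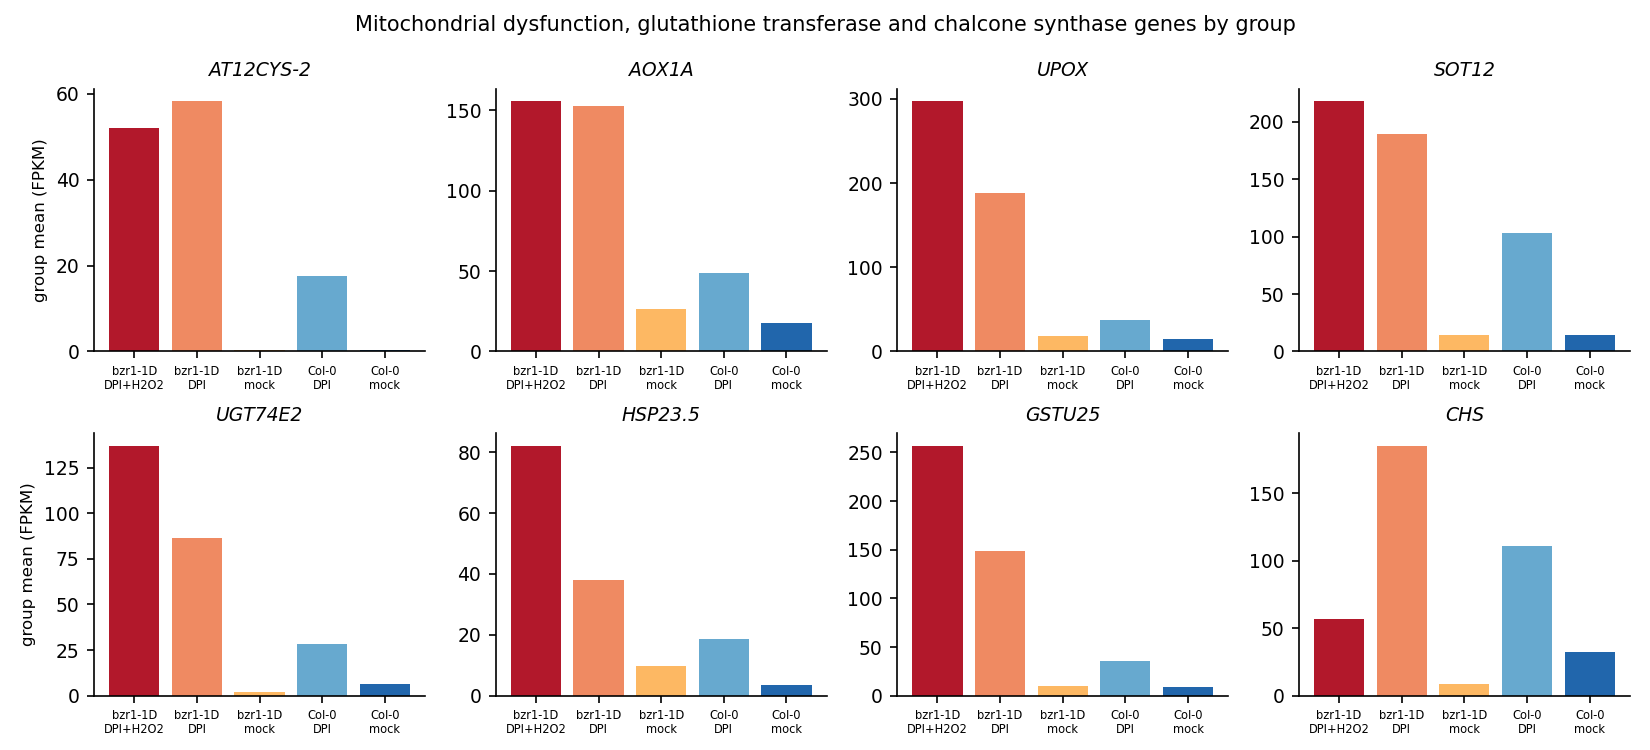
Authors' group means in FPKM (vertical axis, from 0) of 6 mitochondrial dysfunction genes, the glutathione transferase gene GSTU25 and the chalcone synthase gene CHS in the 5 groups (bars, no error available). Both mock groups lie below all 3 DPI groups in every panel, and CHS is highest in bzr1-1D with DPI, at 185 FPKM. The genes drawn were chosen with their values known and all have this pattern. Listed genes without it, such as GSTU24, are not drawn.

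Chlorophyll biosynthesis genes were lower as a group. Of 15, 11 were lower and none higher, with a median of -0.78. CHLH, a subunit of magnesium chelatase, had 44.7 FPKM in bzr1-1D with DPI plus H2O2, 74.6 FPKM in bzr1-1D with DPI, 26.4 FPKM in bzr1-1D mock, 144 FPKM in Col-0 with DPI and 122 FPKM in Col-0 mock. CHLM, a methyltransferase, had 74.8 FPKM in bzr1-1D with DPI plus H2O2 and 191 FPKM in Col-0 mock, and CRD1, a cyclase subunit, 198 and 496 FPKM. PORA, PORB and PORC, the light-dependent reductases, stayed within 1.5-fold. Of 7 greening regulators 2 were higher and 2 lower, with a median of -0.22. GLK2, an activator of chloroplast genes, was lower at 19.4 and 44.7 FPKM, and HYH at 5.26 and 9.05 FPKM. The photoprotection genes ELIP1 (15.5 against 3.31 FPKM) and ELIP2 (40.0 against 16.1 FPKM) were higher.

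Light-harvesting and Rubisco small subunit genes split, with 6 of 22 higher and 7 lower, against 30.3% and 14.4% of all genes tested. Their median was 0.03 (-0.16 after centring). LHCB1.3 had 9110 FPKM in bzr1-1D with DPI plus H2O2 and 21154 FPKM in Col-0 mock. Its neighbour LHCB1.2 had 1452 and 125 FPKM, and LHCB1.1 had 46.3 and 19.3 FPKM. LHCB1 genes and Rubisco small subunit genes are near-identical copies, so reads may have been split between them and opposite directions within these families are uncertain. Outside these families, LHCB4.2 was lower at 216 and 650.2 FPKM, LHCA3 at 284 and 611 FPKM, and LHCB3 was higher at 408 and 230 FPKM.

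All 8 phosphate starvation genes tested were higher, with a median of 1.84. On centring 6 of the 8 stayed past the threshold, SQD2 and PAP17 not. The median was 1.05 at a minimum of 10 FPKM. SPX1, a phosphate sensor, had 20.4 FPKM in bzr1-1D with DPI plus H2O2, 13.3 FPKM in bzr1-1D with DPI, 20.4 FPKM in bzr1-1D mock, 1.49 FPKM in Col-0 with DPI and 0.88 FPKM in Col-0 mock. The phosphate transporter genes PHT1;2 (87.4 FPKM) and PHT1;3 (4.61 FPKM) were listed at the lowest value in both Col-0 groups, and their near-identical neighbour PHT1;1 had 75.1 FPKM in bzr1-1D with DPI plus H2O2 and 42.5 FPKM in Col-0 mock, so reads may have been shared among them. Of 7 seed storage genes 6 were higher, with a median of 2.28. The albumin gene SESA2 had 32.5 FPKM in bzr1-1D with DPI plus H2O2 and 2.59 FPKM in Col-0 mock, SESA4 3.60 and 0.10 FPKM and CRU2 11.6 and 0.84 FPKM. CRA1, a cruciferin, was lower at 88.9 and 156 FPKM, with 9.82 FPKM in Col-0 with DPI. Of the root markers, 1 of 7 tested was higher (CASP1) and 3 lower, with a median of -0.52. AGP30, an arabinogalactan protein of roots, had 2.19 FPKM in bzr1-1D with DPI plus H2O2, 1.44 FPKM in bzr1-1D with DPI, 113 FPKM in bzr1-1D mock, 19.6 FPKM in Col-0 with DPI and 116 FPKM in Col-0 mock. COBL9, a root hair gene, was close to the threshold at 0.84 and 1.28 FPKM.

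At the extremes of the comparison stood genes whose 3 bzr1-1D means lay on one side of both Col-0 means and genes that differed with DPI. Among genes averaging 10 FPKM or more, the largest log2 ratio, 10.60, belonged to AT1G24388 on chromosome 1 (8648099 to 8648694), of unknown function. It had 139 FPKM in bzr1-1D with DPI plus H2O2, 142 FPKM in bzr1-1D with DPI, 109 FPKM in bzr1-1D mock, but 0.09 FPKM in either Col-0 group. AT1G24390, which overlaps it on the opposite strand, followed the same course. The amino acid transporter-like gene UMAMIT36 had 60.3, 20.3, 24.1, 1.24 and 0.33 FPKM in the same order of groups. In others of the top 10 the DPI groups stood above the mock groups. The MATE efflux gene AT2G04070 had 52.4 FPKM in bzr1-1D with DPI plus H2O2, 42.6 FPKM in bzr1-1D with DPI, 0.50 FPKM in bzr1-1D mock, 4.07 FPKM in Col-0 with DPI and 0.15 FPKM in Col-0 mock. AT3G54530 had 38.8, 16.8, 0.47, 2.06 and 0.03 FPKM in the same order. The beta-glucosidase gene BGLU28 had 24.4, 11.1, 0.74, 0.44 and 0.10 FPKM, so Col-0 with DPI did not exceed bzr1-1D mock. AT5G24640, AT2G28815 and AT5G37490, with log2 ratios of 7.76, 7.14 and 6.75, and AT12CYS-2 complete the 10. Among genes at the lowest value in Col-0 mock, PHT1;2 was followed by AT1G27580 at 86.7 FPKM, AT2G03230 at 28.8 FPKM, AT1G10875 at 17.42 FPKM and AT5G39640 at 13.8 FPKM in bzr1-1D with DPI plus H2O2.

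At the other end, 9 of the 10 lowest ratios were of genes at or below 3.55 FPKM in every bzr1-1D group and at or above 45.8 FPKM in both Col-0 groups. TGG2, a myrosinase that cleaves glucosinolates, had 0.04 FPKM in bzr1-1D with DPI plus H2O2, 0.04 FPKM in bzr1-1D with DPI, 0.03 FPKM in bzr1-1D mock, 55.2 FPKM in Col-0 with DPI and 45.8 FPKM in Col-0 mock. AT5G28919 had 0.03 and 153 FPKM in bzr1-1D with DPI plus H2O2 and Col-0 mock, and its overlapping partner AT5G28920 had 0.04 and 131 FPKM. AT5G42825 on chromosome 5 had 0.11 and 196 FPKM. AT4G22475, AT4G22485, AT4G22495, AT4G22505 and AT4G22510 lie within chromosome 4 from 11844243 to 11857313, 2 of them annotated as lipid-transfer proteins. They had 0.12 to 0.56 FPKM in bzr1-1D with DPI plus H2O2 and 113 to 195 FPKM in Col-0 mock. AT4G22475 and AT4G22485, and AT4G22495 and AT4G22505, overlap each other on opposite strands and may share reads, and AT5G42825 overlaps a neighbour as well. AT3G16670, the exception, had 0.06, 0.16, 2.17, 7.63 and 22.7 FPKM in the same order of groups. At the lowest value in bzr1-1D with DPI plus H2O2 stood the F-box gene AT1G25211, AT5G37990, AT5G54700 and AT5G45573, with 14.5, 11.9, 10.1 and 6.38 FPKM in Col-0 mock.

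Across all genes, 1596 (8.20%) of 19471 had every bzr1-1D mean at least 1.5-fold above both Col-0 means and 531 (2.73%) had every bzr1-1D mean at least 1.5-fold below. The genotypes share only the mock and DPI treatments. This pattern was chosen after the values were seen. At 8-fold or more it held for 66 (0.339%) higher and 51 (0.262%) lower genes, and with 5 FPKM or more in some group for 38 higher and 36 lower genes. Of the 36 lower genes 19 (52.8%) lay on chromosome 5 and 8 on chromosome 4, while chromosome 5 holds 23.3%, chromosome 4 15.1% and chromosome 1 26.1% of all genes tested. Of the 38 higher genes 15 (39.5%) lay on chromosome 1 and 13 (34.2%) on chromosome 5. Most of the 8 lower genes on chromosome 4 are neighbours from AT4G22475 to AT4G22517 that overlap in part. AT5G28919 and AT5G28920 overlap as well, and so do AT1G24388 and AT1G24390 among the higher genes. Such genes may share reads, so these chromosome counts are not of separate observations. The 38 included the growth genes SAUR9, SAUR10 and IAA6, the pectin-degrading enzyme gene PGAZAT (22.8 against 0.35 FPKM) and the iron transporter gene IRT1 (6.18 against 0.26 FPKM). The 36 included the disease resistance gene RPP8 and the ammonium transporter gene AMT1;2 (0.20 against 7.69 FPKM).

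**Figure D5:**
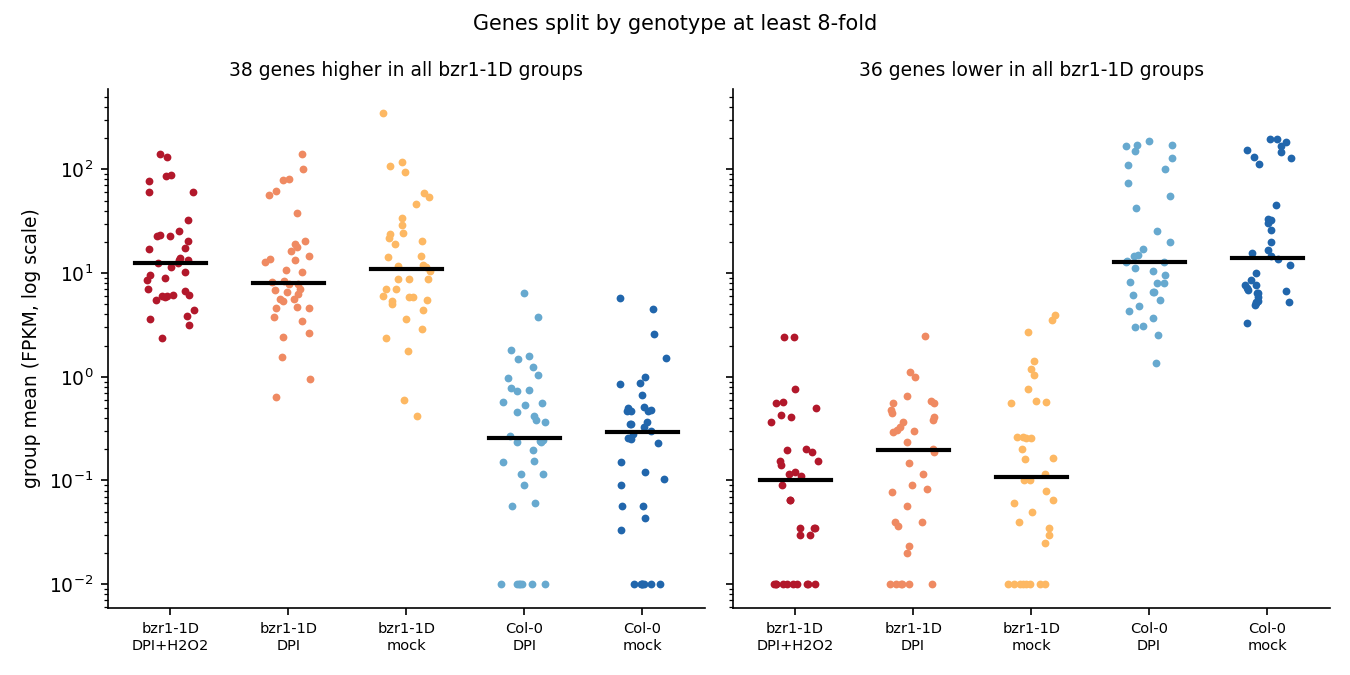
Authors' group means in FPKM (vertical axis, log scale) of the 38 genes with all bzr1-1D means at least 8-fold above (left) and the 36 genes with all bzr1-1D means at least 8-fold below (right) both Col-0 means, with each group's median as a black bar. Points at 0.01 FPKM are genes at the lowest table value, and the genes were selected for this split.

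A smaller set stood apart in bzr1-1D with DPI plus H2O2 from all 4 other groups. Of 19471 genes, 757 (3.89%) had their highest mean there by 1.5-fold or more and 128 (0.657%) their lowest. For the other groups these counts were 125 and 459 in bzr1-1D with DPI, 986 and 958 in bzr1-1D mock, 195 and 2226 in Col-0 with DPI, and 401 and 367 in Col-0 mock. MYB45, a transcription factor gene, had 20.7 FPKM in bzr1-1D with DPI plus H2O2, 6.42 FPKM in bzr1-1D with DPI, 8.26 FPKM in bzr1-1D mock, 2.64 FPKM in Col-0 with DPI and 1.77 FPKM in Col-0 mock. AT5G44563 had 11.7, 4.31, 2.44, 0.47 and 0.39 FPKM in the same order, and AT2G18360, a hydrolase gene, 14.2, 5.57, 2.84, 1.31 and 1.11 FPKM. AT3G58550, annotated as a lipid-transfer protein, and AT3G13910 were also highest there, at 26.6 and 27.4 FPKM. MYB45 and AT3G58550 overlap a neighbour on the opposite strand. In all 5 the next highest group was another bzr1-1D group. Among genes lowest there, PDF1.4, a defensin-like gene, had 1.90 FPKM in bzr1-1D with DPI plus H2O2 and 5.04 to 10.1 FPKM elsewhere. The other 4 were AT4G22495, AT5G28919, AT5G28920 and AT3G16670, whose values in the bzr1-1D groups were at or below 2.17 FPKM.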

How the data were processed

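RNA-Seq libraries of 14 seedling samples were sequenced by the authors on the BGISEQ-500 platform, and the reads were mapped with HISAT and Bowtie2, versions not given in the sources used here. The submitters' processing notes name TAIR10. The deposited tables hold the authors' mean of each group per gene, in a unit not named in the sources and taken as FPKM (fragments scaled to gene length and library size) from the values. Zeros had been replaced by 0.01. The tables also hold the authors' own log2 ratios, up or down calls and NOISeq probabilities, and none of these was used. FPKM divides a total among all genes, so a few abundant transcripts move the values of the others. How deeply each sample was sequenced, and so the precision of its values, is unknown.

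Samples were grouped by their labels. Log2 ratios of the deposited FPKM means were computed with Python 3.11.15, numpy 2.4.6 and pandas 2.3.3 without a pseudocount, for genes averaging at least 1 FPKM over both groups, with no test across replicates. Not counted are 39 genes with 1 FPKM or more in Col-0 mock that had no expression listed in bzr1-1D with DPI plus H2O2 and were not in the join. The steps were tested on simulated data. File coordinates of all 24145 genes found in RefSeq TAIR10.1 lay inside the genes annotated there, and upstream windows were read from that genome.

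Named genes were those the study names, the 10 highest and 10 lowest ratios at 10 FPKM or more, up to 5 in each direction at the lowest value in 1 group, up to 3 per list and direction, and the 5 standing furthest above and below all other groups. Other members of the lists and of the genotype and DPI patterns were chosen after their values were seen. One gene that this rule names is not reported here. The comparison and the 24 lists were chosen with earlier results of these data known. Alternatives were no minimum, a minimum of 10 FPKM, pseudocounts of 1 and 0.1 FPKM, a 2-fold threshold, centring on the median gene, and the same means read from other deposited tables.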

Additional observations from a re-analysis of the deposited data

How the results depend on the processing

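The number of higher genes, 5586, was 2410 with a minimum of 10 FPKM and 3089 with a 2-fold threshold, and the number of lower genes, 2653, was 1411 and 1179. These settings test fewer genes or ask for a larger ratio by construction. Without a minimum the counts were 7446 and 3905. The median log2 ratio of 0.19 became 0.00 on centring, by construction, and 0.11 with a minimum of 10 FPKM. Reading the means from other deposited tables gave 5572 higher and 2655 lower genes. The median of the growth helix-loop-helix list, 0.71, became -0.0068 without a minimum, and that of the ethylene list, 0.91, became -0.21 with a minimum of 10 FPKM. That minimum, which tests fewer genes, also moved 17 other list counts or medians, among them the oxidative stress median to 4.01, the flavonoid median to 0.36 and the phosphate median to 1.05. Adding 1 FPKM moved 6, among them the mitochondrial dysfunction median to 2.61 and the SAUR median to 1.78. Named genes near 1.5-fold crossed it under some settings: ROT3 (0.56 with 1 FPKM added), COBL9 (-0.31 with 1 FPKM added), and ARF6, TRXH5, ROT3, CSD1 and TRXH2 on centring. No named gene past the threshold changed direction under the alternatives run. No paired analysis was possible because the files analysed give 1 mean per group, although the labels number the replicates, and leaving out single replicates was not possible for the same reason. Low means are the least certain, since the depth behind them is unknown.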

Other observations

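Several gene families outside the lists were examined after their values were seen, and are given as values. Tau-class glutathione transferase genes, which conjugate glutathione to toxic compounds, were higher in 17 of 24 cases and lower in 1, with a median log2 ratio of 1.15 against 0.19 over all genes tested, of which 30.3% were higher and 14.4% lower. GSTU9 had 232 FPKM in bzr1-1D with DPI plus H2O2, 118 FPKM in bzr1-1D with DPI, 30.5 FPKM in bzr1-1D mock, 18.8 FPKM in Col-0 with DPI and 8.57 FPKM in Col-0 mock. Of 39 MATE efflux genes 17 were higher and 7 lower, with a median of 0.21 that is close to the all-gene median. Neighbours of AT2G04070 on chromosome 2 were among the highest, and such neighbours may share reads. AT2G04050 had 150 FPKM in bzr1-1D with DPI plus H2O2 and 2.09 FPKM in Col-0 mock, AT2G04066 2.865 and 0.24 FPKM, and DTX1 67.6 and 9.10 FPKM. WRKY genes, transcription factors of defence and stress, were higher in 31 of 48 cases and lower in 5, with a median of 1.02. Cysteine-rich receptor-like kinase genes were higher in 7 of 13 cases and lower in none.

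Genes encoded in the plastid were lower in 55 of 87 cases and higher in 2, with a median of -0.79. Genes encoded in the mitochondrion were higher in 32 of 51 cases and lower in 2, with a median of 0.78. Of all genes tested 30.3% were higher and 14.4% lower. The largest mitochondrial ratios were at low levels, with ORF141 at 3.04 FPKM in bzr1-1D with DPI plus H2O2 and 0.21 FPKM in Col-0 mock, and COB at 2.89 and 0.24 FPKM. The plastid median for bzr1-1D mock over Col-0 mock was -1.36, and the mitochondrial one was -0.46. For bzr1-1D DPI over bzr1-1D mock the medians were 0.86 for plastid and 1.398 for mitochondrial genes, for bzr1-1D DPI plus H2O2 over bzr1-1D DPI -0.19 and -0.08, and for Col-0 DPI over Col-0 mock 0.10 and 0.63. Libraries were made from mRNA, and how far the selection of mRNA shaped these organelle values was not tested. Neighbouring organelle genes can share a transcript, so members are not separate observations.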
